A study of Homo sapiens with 6 samples.

Results

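The genes described here encode the PI3K, AKT, mTOR and FOXO pathway in T47D, an established human line of breast ductal carcinoma cells that expresses the oestrogen receptor. A list of 54 genes was taken by symbol from the 17758 genes of the expression table. It held PI3K subunits with the inhibitor PIK3IP1, 2 receptors that feed into PI3K, adaptors, phosphoinositide and AKT phosphatases, and AKT and related kinases. It also held the TSC complex with RHEB, the mTOR complexes, mTORC1 effectors, FOXO factors and FOXO targets. All 54 were in the table, and 53 of them passed the low-count filter, among 13824 genes tested. SESN3, a sestrin gene that FOXO factors activate, did not pass, with 0.01, 0.01 and 0.02 TPM in shCUEDC1 cells and 0.01 TPM in each shNC library.

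Poly(A) RNA was sequenced from 3 libraries of T47D cells stably carrying a lentiviral short hairpin RNA against CUEDC1 (shCUEDC1) and 3 libraries of T47D cells stably carrying a non-targeting hairpin (shNC). CUEDC1 encodes a protein with a CUE domain, a fold that binds ubiquitin. All cells were grown in RPMI 1640 medium with serum and antibiotics, and both groups carried a lentiviral insert, so neither group was untransduced. The labels name neither the number of hairpins nor whether the replicates came from separate infections, so an effect of the hairpin sequence and an effect of CUEDC1 loss cannot be told apart. A p-value here reflects library-to-library spread, which may be technical.

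The libraries held 18924327 to 19731609 estimated reads. CUEDC1 had 23.2, 24.4 and 22.8 TPM in the shCUEDC1 libraries, against 79.4, 80.5 and 70.6 TPM in the shNC libraries, a difference of -68.9% (95% interval -72.3% to -65.0%, adjusted p = 9.27e-06, edgeR quasi-likelihood test). TPM is a level scaled to transcript length and library size that allows genes to be compared with each other. Summed TPM of 8 luminal epithelial markers lay between 13947 and 14302 in shCUEDC1 and between 11810 and 14176 in shNC. Summed TPM of 5 leukocyte markers was 18.0 to 18.2 in shCUEDC1 and 9.46 to 10.3 in shNC, with LYZ called higher, and that of 5 fibroblast markers was 19.9 to 21.6 in shCUEDC1 and 12.01 to 14.3 in shNC, with COL1A1 called higher. Summed TPM of 4 basal markers was 22.3 to 25.8 in shCUEDC1 and 18.4 to 40.0 in shNC, and that of 4 endothelial markers was 0.14 to 0.32 in shCUEDC1 and 0.17 to 0.19 in shNC. No listed marker was at 0 in all 6 libraries, and the part of these markers in the results was not tested. In bulk libraries, fewer cells of a type and less RNA per cell cannot be told apart.

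PI3K enzymes add a phosphate to inositol lipids of the membrane when a receptor or its adaptor recruits them, and phosphatases remove it. AKT binds the phosphorylated lipid, is activated there, and phosphorylates the TSC complex, GSK3 and the FOXO factors. Inhibition of TSC lets RHEB switch on mTORC1, which drives translation, while phosphorylated FOXO factors leave the nucleus and stop activating their targets. In oestrogen receptor-positive breast cancer the pathway is known for frequent mutation of PIK3CA and as a drug target. The messenger RNA levels measured here do not report phosphorylation.

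At an adjusted p below 0.05, 7 members were higher and 4 were lower in shCUEDC1 than in shNC. These 11 were 20.8% of the 53 members tested, against 9.96% of all genes tested. The members were chosen with earlier results of these data known, so this contrast is only a description. Among all genes 5.19% were called higher and 4.77% lower. The higher members were AKT1, IRS1, SGK3, FOXO4, INPP4B, GAB1 and PIK3C2B, and the lower members were FBXO32, FOXO3, PIK3CB and PIK3C2A. With all 6 libraries only 3 of the called members, SGK3, IRS1 and FOXO4, differed by more than 1.5-fold, a criterion that 3% of all genes passed. None of the 53 members differed by more than 2-fold at an adjusted p below 0.05 by edgeR, DESeq2 or limma with all 6 libraries, and none did at an unadjusted p below 0.05, whereas 162 of all genes (1.17%) passed the edgeR criterion. The median log2 difference was -0.0043 over the members and -0.0040 over all genes tested, and 25 members were positive and 28 negative. CPM values, counts scaled to a common library size, did not overlap between the groups for 19 members (11 higher and 8 lower), against 31.3% of all genes (15.7% higher and 15.6% lower).

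**Figure D1:**
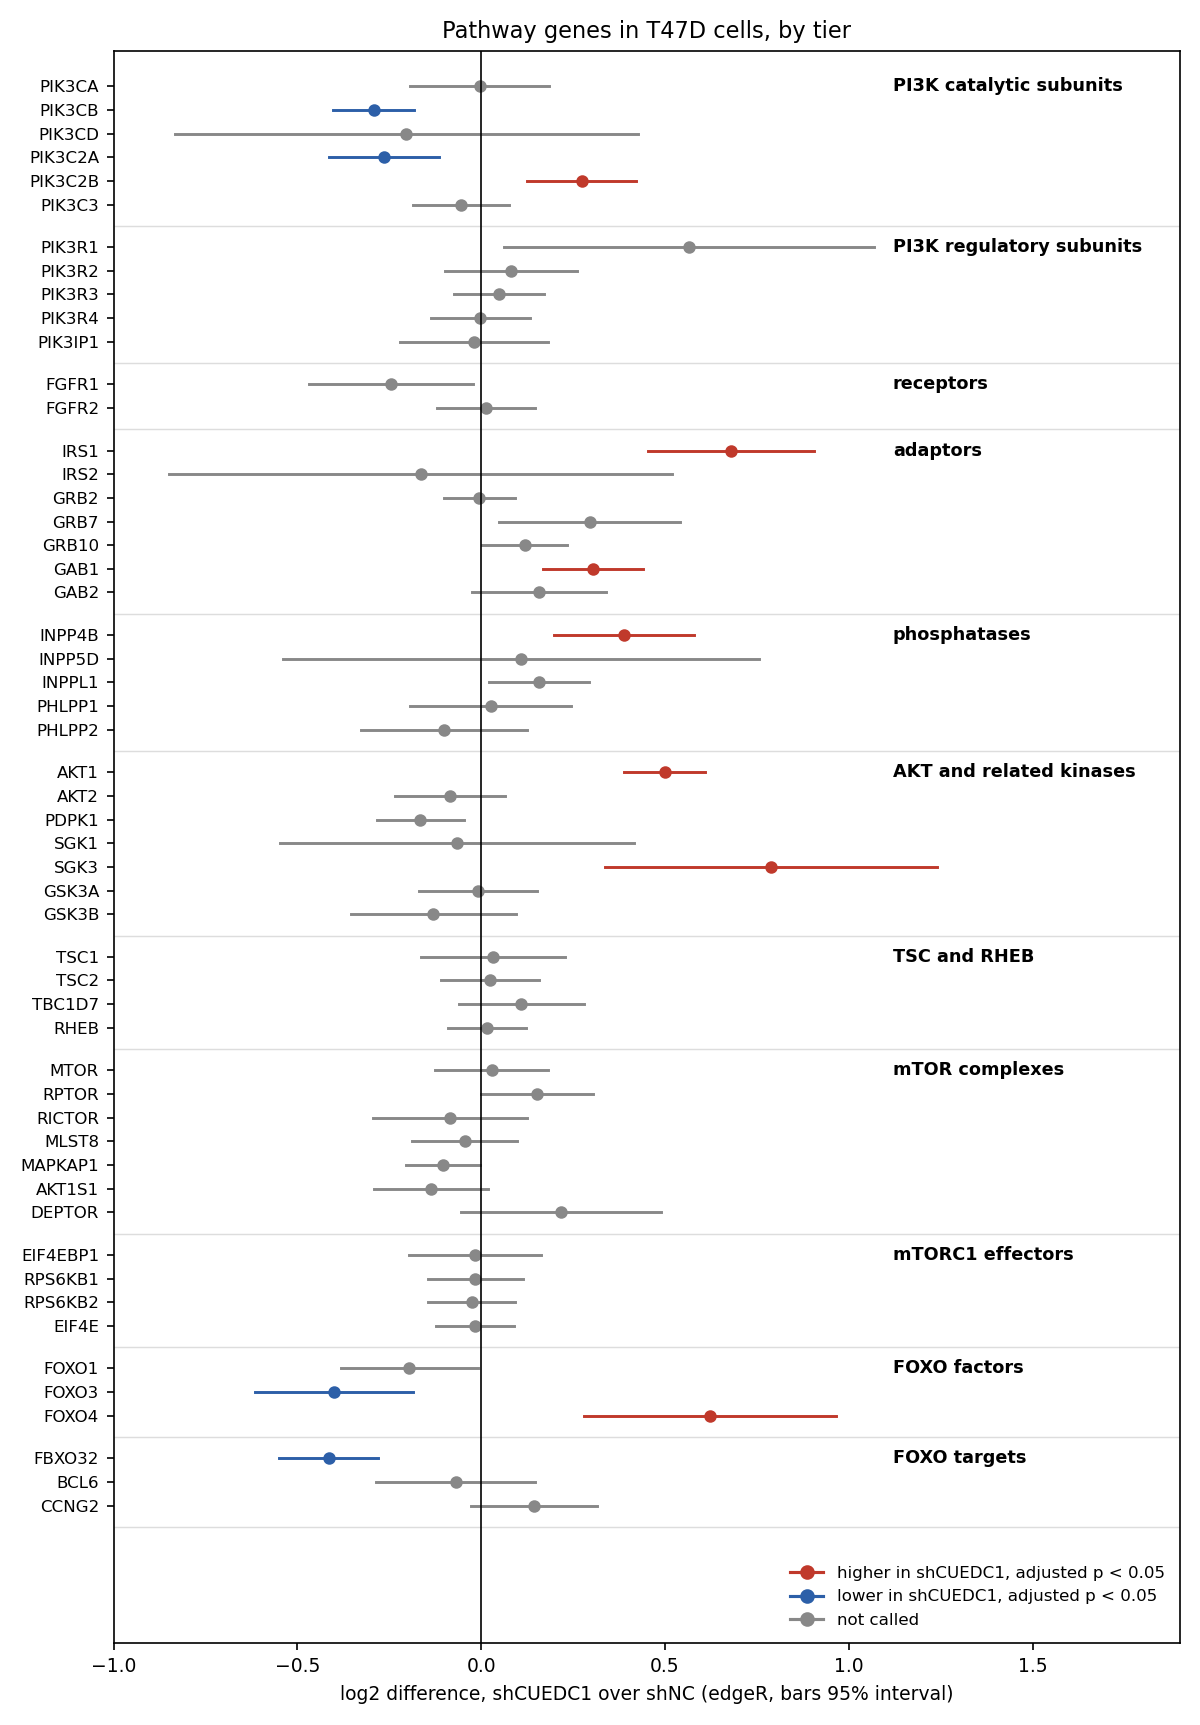
Log2 difference of shCUEDC1 over shNC for the 53 tested pathway genes, grouped by role, with edgeR estimates as points and 95% intervals as bars. The 7 genes called higher and 4 called lower stand among the catalytic subunits, adaptors, phosphatases, AKT-related kinases, FOXO factors and FOXO targets, and the other role groups hold no called gene.

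One control library stood apart. The SD of the members' log2 differences between shNC 3 and the mean of shNC 1 and 2 was 0.28, against 0.15 between shNC 1 and shNC 2, and over all genes the corresponding values were 0.31 and 0.19. With shNC 3 left out, 21 members were called, 13 higher and 8 lower, or 39.6% of the members, while 3925 of all genes (28.1%) were called. All 11 members called with 6 libraries were among the 21. Where leaving out shNC 3 changed whether a member was called, the value without it is given beside the result.

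The receptors and adaptors pass growth factor signals to PI3K. Neither of the receptor genes was called with 6 libraries. FGFR2, a fibroblast growth factor receptor, had 36.8, 35.8 and 33.9 TPM in shCUEDC1, against 37.5, 37.4 and 34.95 TPM in shNC, at a log2 difference of 0.01 (95% interval -0.12 to 0.15). FGFR1 was at 8.41 to 9.52 TPM in shCUEDC1 and 9.63 to 12.2 TPM in shNC (log2 difference -0.25, adjusted p = 0.158 by edgeR). Without shNC 3 FGFR1 was called lower, at -0.33 with an adjusted p of 0.00108. Among the 7 adaptors 2 rose, and none fell.

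IRS1, the docking protein that couples the insulin and IGF receptors to PI3K, had 23.8, 22.8 and 21.5 TPM in shCUEDC1 libraries, against 15.6, 15.6 and 12.1 TPM in shNC libraries. Every shCUEDC1 library was above every shNC library, and shNC 3 was the lowest. The means were 22.7 ± 1.18 TPM and 14.4 ± 2.02 TPM (SD, n = 3 each), a log2 difference of 0.68 (SE 0.10, edgeR adjusted p = 0.00377). IRS2, its paralog, had 1.04 TPM in each shCUEDC1 library and 0.77, 0.91 and 1.92 TPM in the shNC libraries, and IRS1 made up 95.6% ± 0.220 of the summed IRS TPM in shCUEDC1 and 92.0% ± 4.98 in shNC. The interval for IRS2 ran from -0.85 to 0.52 on the log2 scale, too wide to place a change of either sign.

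GAB1, a docking protein that several receptor tyrosine kinases phosphorylate, had 18.3, 17.5 and 17.5 TPM in shCUEDC1, against 13.8, 14.4 and 15.9 TPM in shNC. The groups did not overlap, and the log2 difference was 0.30 (SE 0.06, edgeR adjusted p = 0.0134). Its paralog GAB2 was at 15.7 to 18.2 TPM in shCUEDC1 and 13.9 to 17.5 TPM in shNC and was not called with 6 libraries (edgeR adjusted p = 0.269). Leaving out shNC 3 gave GAB2 an adjusted p of 0.0126 and a log2 difference of 0.22. GRB2, the adaptor that links receptors to RAS and the most abundant gene of this group, had 125.7, 126 and 117 TPM in shCUEDC1 and 124, 125 and 128.3 TPM in shNC, with a log2 difference of -0.0057 (95% interval -0.10 to 0.09). GRB7 was at 20.3 to 23.7 TPM in shCUEDC1 and 15.9 to 19.98 TPM in shNC. GRB10, an inhibitor of insulin receptor signalling, was at 49.6 to 50.7 TPM in shCUEDC1 and 45.6 to 47.8 TPM in shNC. Neither GRB7 nor GRB10 passed the adjusted threshold (edgeR adjusted p = 0.129 and 0.187).

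Of the 6 catalytic PI3K subunits 1 rose and 2 fell. PIK3CB, the class I catalytic subunit beta, had 37.1, 35.9 and 35.2 TPM in shCUEDC1, against 44.5, 43.6 and 47.1 TPM in shNC. The groups were well apart, at 36.1 ± 0.942 and 45.1 ± 1.83 TPM (SD, n = 3 each), and the log2 difference was -0.29 (SE 0.05, edgeR adjusted p = 0.00568). PIK3CA, the alpha subunit, had 30.5, 26.8 and 27.2 TPM in shCUEDC1 and 26.2, 24.6 and 31.6 TPM in shNC, with shNC 3 the highest of all libraries. Its log2 difference was -0.0043 with a 95% interval of -0.19 to 0.18, and 35.8% of its exonic bases overlap KCNMB3 on the opposite strand. PIK3CA thus made up 44.5%, 42.3% and 43.1% of the summed TPM of PIK3CA, PIK3CB and PIK3CD in shCUEDC1 libraries, against 36.5%, 35.7% and 39.8% in shNC libraries. PIK3CD stayed at 0.62 to 0.89 TPM in shCUEDC1 and 0.59 to 1.14 TPM in shNC.

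Of the class II enzymes, which act mainly on endosomal and other internal membranes, PIK3C2A fell and PIK3C2B rose. PIK3C2A had 15.5, 15.3 and 13.2 TPM in shCUEDC1, against 17.2, 17.6 and 19.4 TPM in shNC, with a log2 difference of -0.27 (SE 0.07, edgeR adjusted p = 0.0341). PIK3C2B had 18.0, 18.5 and 17.1 TPM in shCUEDC1, against 15.7, 13.7 and 15.9 TPM in shNC, with a log2 difference of 0.27 (SE 0.07, edgeR adjusted p = 0.0296). Neither gene's libraries overlapped between the groups, and PIK3C2B was the more abundant of the pair in every shCUEDC1 library and the less abundant in every shNC library. PIK3C2G, the remaining class II gene and no member of the list, had 1.44, 1.43 and 0.95 TPM in shCUEDC1, against 0.84, 0.54 and 0.42 TPM in shNC, and just missed the threshold (log2 difference 1.05, 95% interval 0.40 to 1.71, edgeR adjusted p = 0.0511). PIK3C3, the class III enzyme of autophagy and endosomes, was at 12.7 to 13.4 TPM in shCUEDC1 and 13.01 to 14.5 TPM in shNC and was not called (edgeR adjusted p = 0.617).

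None of the 5 genes of the regulatory group, which holds subunits and the inhibitor PIK3IP1, was called with 6 libraries. PIK3R1, which encodes p85-alpha and holds the class I enzyme inactive until a receptor engages it, had 61.4, 59.6 and 57.7 TPM in shCUEDC1 and 33.7, 31.8 and 58.0 TPM in shNC. The first and second shNC libraries lay far below the shCUEDC1 libraries, and shNC 3 lay among them. On the CPM scale the lowest shCUEDC1 library, at 166 CPM, was just above shNC 3, at 156 CPM. The PIK3R1 log2 difference came to 0.56 (SE 0.21, adjusted p = 0.157 by edgeR), and without shNC 3 it was 0.86 with an adjusted p of 7.73e-16. PIK3R3 was at 36.9 to 40.3 TPM in shCUEDC1 and 37.2 to 39.5 TPM in shNC. Of its exonic bases, 17.4% overlap AL358075.4 on the same strand. PIK3R2, PIK3R4, the partner of PIK3C3, and PIK3IP1, a transmembrane inhibitor of PI3K, had log2 differences between -0.02 and 0.08. Reads of PIK3R2 are uncertain, since 87.2% of its exonic bases are shared with AC007192.1 on the same strand. Summed over PIK3R1, PIK3R2 and PIK3R3, regulatory TPM was 1.80, 1.87 and 1.81 times the summed catalytic TPM of PIK3CA, PIK3CB and PIK3CD in shCUEDC1, against 1.31, 1.30 and 1.44 times in shNC. The regulatory sums themselves overlapped, at 113.7 to 123.1 TPM in shCUEDC1 and 93.99, 89.8 and 113.99 TPM in shNC. The catalytic sum of shNC 3 was the highest, at 79.3 TPM, against 62.99 to 68.4 TPM in shCUEDC1. The regulatory sum includes the uncertain reads of PIK3R2.

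**Figure D2:**
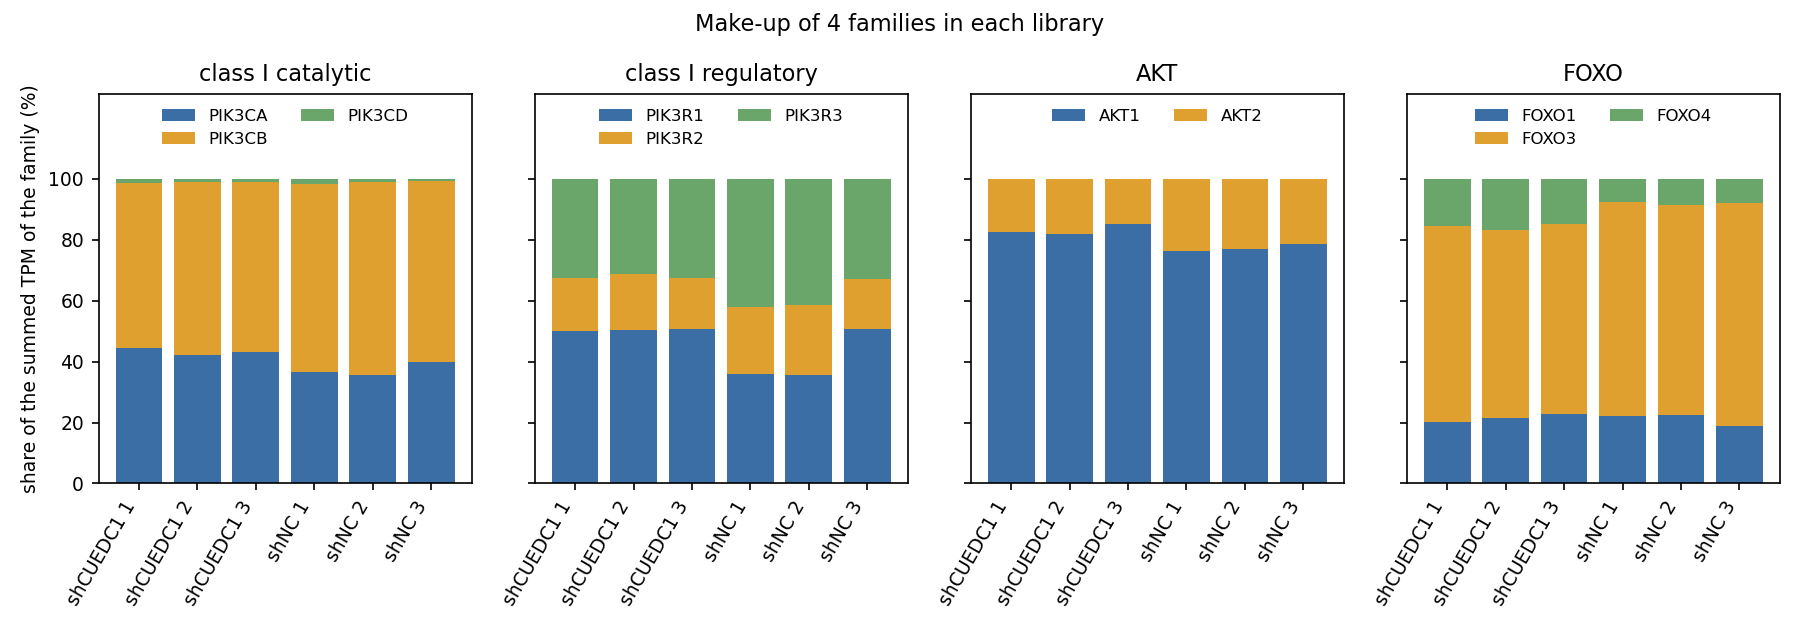
Share of the summed TPM of 4 gene families held by each member (per cent, stacked bars), with the 3 shCUEDC1 libraries left of the 3 shNC libraries. AKT1 held 82.0% to 85.3% of the AKT pair in shCUEDC1 and 76.4% to 78.5% in shNC, and the PIK3R1 share of shNC 3 (50.8%) lay at the shCUEDC1 level.

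Among the 5 phosphatases 1 rose. INPP4B, which removes a phosphate from an inositol lipid that activates AKT, had 26.9, 26.6 and 25.3 TPM in shCUEDC1, against 18.98, 18.2 and 23.2 TPM in shNC. The shNC 3 value lay nearest the shCUEDC1 libraries without reaching them. The log2 difference was 0.39 (SE 0.09, edgeR adjusted p = 0.0201), and 0.51 without shNC 3. INPPL1, the most abundant of the group and a phosphatase of the PI3K lipid product, had 56.2, 55.7 and 48.7 TPM in shCUEDC1 and 48.2, 51.0 and 47.4 TPM in shNC (log2 difference 0.16, edgeR adjusted p = 0.141, and 0.13 with an adjusted p of 0.0492 without shNC 3). PHLPP1 and PHLPP2, which dephosphorylate AKT, were at 4.13 to 4.29 and 5.91 to 7.42 TPM in shCUEDC1 and at 3.92 to 4.44 and 6.28 to 7.93 TPM in shNC. INPP5D, known from blood cells, was below 1 TPM in all libraries.

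AKT1 had the smallest adjusted p of the members and the highest mean TPM over all 6 libraries, although EIF4EBP1 was higher in shNC 2 (170.4 TPM). AKT1 had 225, 216 and 208 TPM in shCUEDC1 libraries, against 156.5, 161 and 151 TPM in shNC libraries. The lowest shCUEDC1 library was well above the highest shNC library, and the spread within each group was small (216 ± 8.10 TPM and 156 ± 5.08 TPM, SD, n = 3 each). AKT1 was 41.3% higher in shCUEDC1 (95% interval 30.9% to 52.5%, log2 difference 0.50, SE 0.05, edgeR adjusted p = 0.000387). AKT2 had 47.3, 47.6 and 36.0 TPM in shCUEDC1 and 48.2, 48.0 and 41.1 TPM in shNC and was not called (log2 difference -0.08, 95% interval -0.23 to 0.07). Without shNC 3 AKT2 was called lower, at -0.14 with an adjusted p of 0.0381 (edgeR). AKT1 transcripts were 4.75, 4.55 and 5.79 times those of AKT2 in shCUEDC1, against 3.24, 3.35 and 3.66 times in shNC, on TPM. On the CPM scale AKT2 had 80.9, 86.5 and 77.2 in shCUEDC1 and 90.5, 89.2 and 79.6 in shNC. The low AKT2 level of shCUEDC1 3, and with it the high ratio there, was thus more marked on TPM than on CPM.

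SGK3, an AKT-related kinase that binds a PI3K lipid on endosomes, had 36.3, 37.9 and 30.1 TPM in shCUEDC1, against 14.9, 19.6 and 27.3 TPM in shNC. It had the highest log2 difference of the members, 0.79 (SE 0.19, edgeR adjusted p = 0.0452), and a wide spread in shNC (34.8 ± 4.14 TPM in shCUEDC1 and 20.6 ± 6.28 TPM in shNC, SD, n = 3 each). Without shNC 3 the log2 difference was 1.03 with an adjusted p of 0.0173, and SGK3 then exceeded 2-fold. With no low-count filter SGK3 was not called (adjusted p = 0.109 by edgeR). Of the exonic bases of SGK3, 6.04% overlap C8orf44 on the same strand. SGK1 was low, at 1.54 to 2.00 TPM in shCUEDC1 and 1.80 to 2.18 TPM in shNC. PDPK1, the kinase that phosphorylates AKT and SGK3, had 33.6, 30.9 and 29.2 TPM in shCUEDC1 and 35.8, 35.2 and 36.0 TPM in shNC, with no overlap but an adjusted p of 0.0793 (edgeR). Without shNC 3 the adjusted p of PDPK1 was 0.00640, and 23.7% of its exonic bases overlap other genes on the opposite strand.

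The GSK3 kinases, which AKT inhibits, were not called. GSK3A had 48.8, 50.1 and 47.9 TPM in shCUEDC1 and 52.5, 51.8 and 46.0 TPM in shNC, with a log2 difference of -0.0080. Of its exonic bases, 11.6% overlap AC006486.1 on the same strand. GSK3B was at 36.6 to 39.1 TPM in shCUEDC1 and at 39.1, 36.8 and 51.5 TPM in the shNC libraries, where shNC 3 alone was high.

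**Figure D3:**
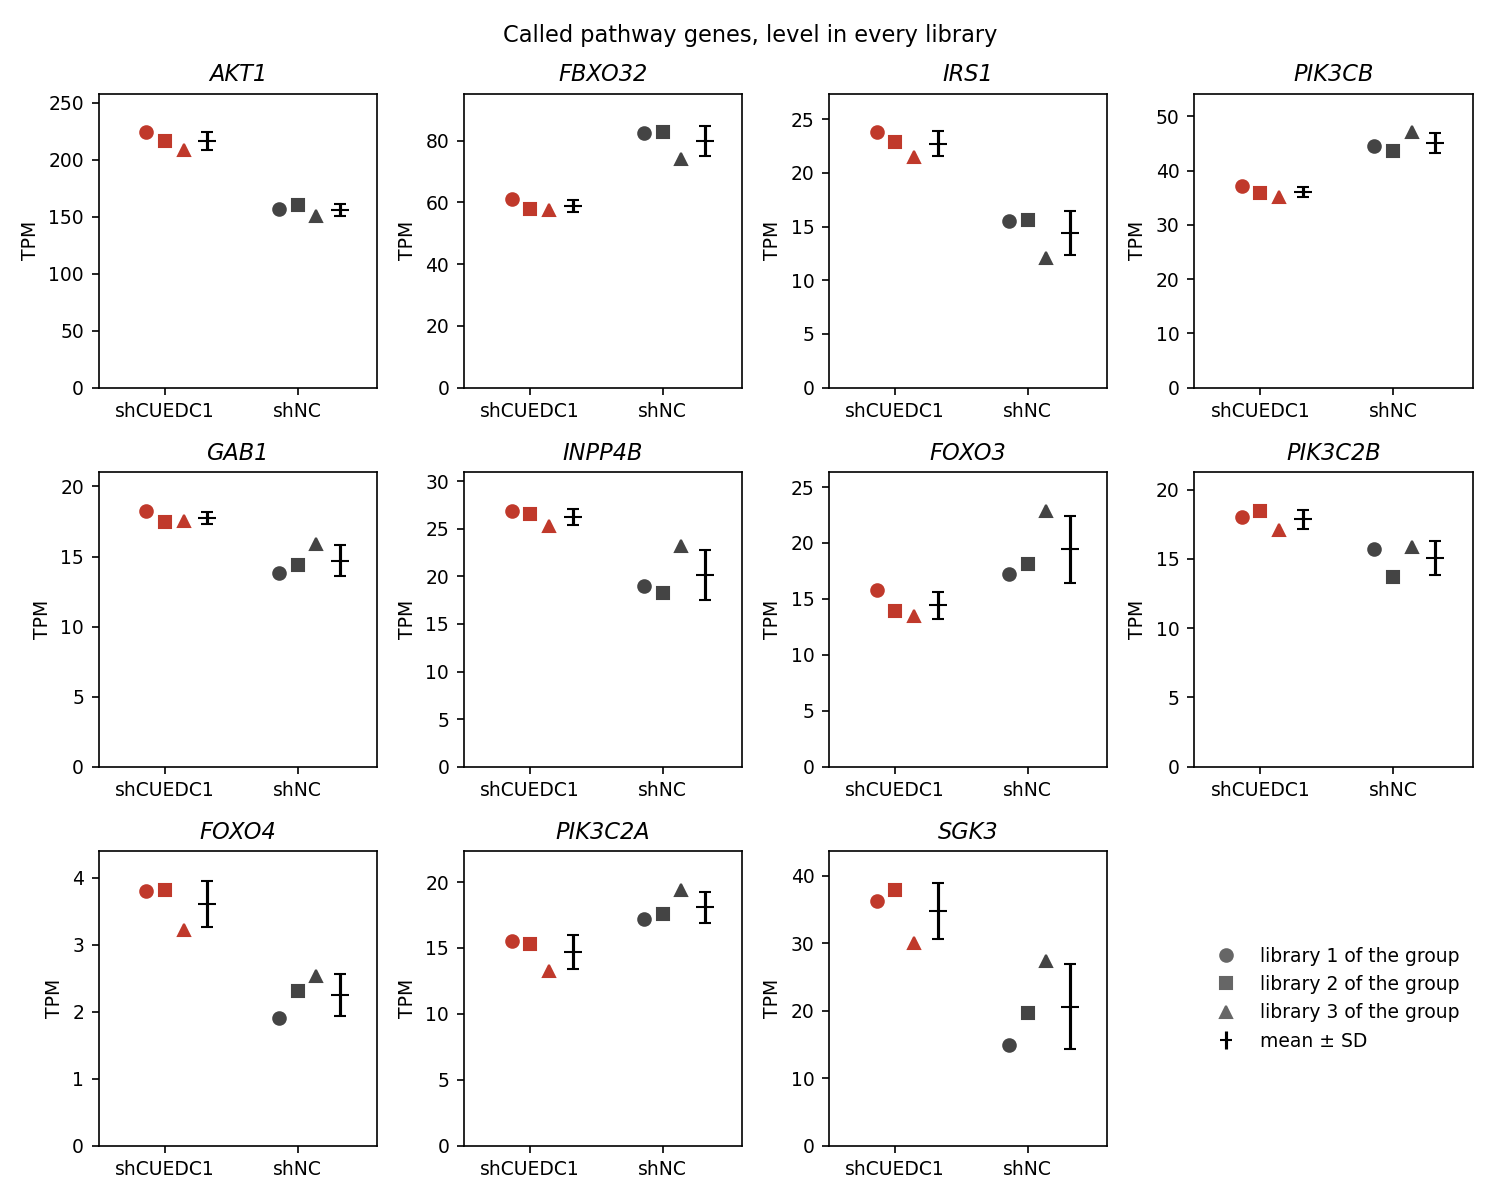
TPM in each library (points, shCUEDC1 left of shNC) with the mean and SD of 3 libraries for the 11 called members, in order of adjusted p and with axes starting at 0. The groups do not overlap for any of the 11, and the SGK3 values of shNC spread from 14.9 to 27.3 TPM.

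The TSC complex, RHEB and the mTOR complexes held no called member with 6 libraries. RHEB, the small GTPase that activates mTORC1, had 116, 117 and 118 TPM in shCUEDC1 and 114, 117 and 123 TPM in shNC, a log2 difference of 0.02 (95% interval -0.09 to 0.12). TSC1, TSC2 and TBC1D7, which together form the complex that inactivates RHEB, had log2 differences of 0.03, 0.02 and 0.11. Without shNC 3 TSC1 was called higher, at 0.15 with an adjusted p of 0.0246 (edgeR). The kinase gene MTOR was at 16.6 to 18.9 TPM in shCUEDC1 and 16.3 to 19.6 TPM in shNC, with a log2 difference of 0.03 (95% interval -0.12 to 0.18).

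The most abundant gene of the mTOR complexes, MAPKAP1, encodes the mTORC2 subunit SIN1 and had 86.8, 88.8 and 84.8 TPM in shCUEDC1, against 94.5, 95.3 and 93.9 TPM in shNC. The groups did not overlap, yet the difference was small (log2 -0.10, edgeR adjusted p = 0.186, and 0.0402 without shNC 3). RPTOR, which defines mTORC1, was at 10.6 to 12.6 TPM in shCUEDC1 and 10.3 to 10.7 TPM in shNC. RICTOR, which defines mTORC2, was at 9.76 to 10.8 TPM in shCUEDC1 and 9.77 to 13.1 TPM in shNC. DEPTOR, a subunit that inhibits mTOR, had 52.5, 47.2 and 48.4 TPM in shCUEDC1 and 38.6, 37.6 and 54.03 TPM in shNC. As for PIK3R1, the first and second shNC libraries were low and shNC 3 was not, and the adjusted p was 0.303 with and 2.39e-06 without shNC 3 (edgeR). MLST8 and AKT1S1, subunits of the complexes, had log2 differences of -0.04 and -0.14 and were not called.

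The mTORC1 effectors showed the narrowest range of the role groups with more than 1 member, with log2 differences from -0.03 to -0.02 and no call. EIF4EBP1, the translation repressor that mTORC1 inactivates, had 145, 153 and 152 TPM in shCUEDC1 and 152, 170.4 and 142 TPM in shNC. EIF4E, the cap-binding factor it holds, was at 118 to 126 TPM in shCUEDC1 and 124 to 127 TPM in shNC. The ratio of EIF4EBP1 to EIF4E was 1.23 ± 0.0739 in shCUEDC1 and 1.23 ± 0.131 in shNC (SD, n = 3 each). The kinase genes RPS6KB1 and RPS6KB2 were at 32.7 to 34.9 and 73.4 to 78.9 TPM in shCUEDC1 and at 32.5 to 38.1 and 77.6 to 81.4 TPM in shNC. For all 15 genes of the TSC and RHEB, mTOR complex and effector groups the 95% interval lay within 1.5-fold in both directions. Of the 42 members not called, 38 had such an interval, and the exceptions were PIK3CD, PIK3R1, IRS2 and INPP5D.

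Of the 3 FOXO factors 1 rose and 1 fell. FOXO3 has a near-identical copy, FOXO3B, to which reads could have been assigned. FOXO3 had 15.8, 13.95 and 13.5 TPM in shCUEDC1, against 17.3, 18.2 and 22.9 TPM in shNC, and its log2 difference was -0.40 (SE 0.10, edgeR adjusted p = 0.0288). Without shNC 3 the log2 difference of FOXO3 was -0.28. FOXO4, the least abundant, had 3.80, 3.82 and 3.22 TPM in shCUEDC1, against 1.91, 2.31 and 2.53 TPM in shNC, with a log2 difference of 0.62 (SE 0.15, edgeR adjusted p = 0.0311). FOXO1 had 4.95, 4.90 and 4.93 TPM in shCUEDC1 and 5.41, 5.90 and 5.94 TPM in shNC and was not called, although the groups did not overlap (log2 difference -0.20, edgeR adjusted p = 0.178). FOXO4 made up 15.5%, 16.9% and 14.9% of the summed FOXO TPM in shCUEDC1, against 7.77%, 8.76% and 8.07% in shNC. FOXO3 transcripts were 4.16, 3.65 and 4.19 times those of FOXO4 in shCUEDC1 and 9.03, 7.86 and 9.04 times in shNC. The summed FOXO TPM was 21.7 to 24.6 in shCUEDC1 and 24.6 to 31.3 in shNC.

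Of the FOXO targets tested, 1 of 3 was called. FBXO32, which encodes the ubiquitin ligase subunit atrogin-1 and is best known as a FOXO target in muscle, had 61.0, 57.9 and 57.6 TPM in shCUEDC1, against 82.6, 82.9 and 74.2 TPM in shNC. All shCUEDC1 libraries were below all shNC libraries, and the level was 25.0% lower (log2 difference -0.41, SE 0.06, edgeR adjusted p = 0.00284). CCNG2, which encodes cyclin G2, had 139, 140.3 and 144 TPM in shCUEDC1 and 122, 119 and 148 TPM in shNC (edgeR adjusted p = 0.284, and 4.60e-05 without shNC 3). BCL6, a transcriptional repressor, was at 29.7 to 32.3 TPM in shCUEDC1 and 29.4 to 40.0 TPM in shNC.

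RefSeq windows of 300 bases around gene starts (build GRCh38.p14, 250 bases before to 50 after) were found for 45 of the 54 members, and were searched on both strands for the FOXO core GTAAACA. No window was found for FBXO32, GAB1, SGK3, FGFR1, GRB7, MLST8, AKT1S1, DEPTOR or EIF4EBP1, so these genes were not searched. The core was found in 3 of 82 member windows (3.66%) and in 1202 of 35116 windows of all genes (3.42%). The windows that hold it belong to FOXO4, PIK3CA and PIK3IP1, and are shown in part. The stretch upstream of AKT1 and of IRS1, which were higher in shCUEDC1, is shown beside them as windows without a match. Capitals mark the core, read as TGTTTAC where it lies on the other strand. Each line runs 5′ to 3′ on the strand of the gene.
FOXO4: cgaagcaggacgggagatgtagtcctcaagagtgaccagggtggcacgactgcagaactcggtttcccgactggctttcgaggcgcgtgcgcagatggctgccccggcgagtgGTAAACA
PIK3CA: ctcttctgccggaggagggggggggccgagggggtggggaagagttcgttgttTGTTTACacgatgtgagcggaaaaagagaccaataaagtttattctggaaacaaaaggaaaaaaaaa
PIK3IP1: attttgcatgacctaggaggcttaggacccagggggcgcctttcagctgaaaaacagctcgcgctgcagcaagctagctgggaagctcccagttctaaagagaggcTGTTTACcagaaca
AKT1: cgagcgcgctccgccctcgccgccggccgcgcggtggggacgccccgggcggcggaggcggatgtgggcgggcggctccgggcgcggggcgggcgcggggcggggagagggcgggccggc
IRS1: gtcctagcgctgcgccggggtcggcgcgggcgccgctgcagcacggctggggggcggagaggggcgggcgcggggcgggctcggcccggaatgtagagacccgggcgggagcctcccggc
The FOXO4 stretch is chrX:71095761-71095880 on the plus strand, with the core at positions 24 to 30 after the start. The PIK3CA stretch is chr3:179148155-179148274 on the plus strand, with the core 149 to 143 bases before the start used for its window. That start lies downstream of the annotated gene start at chr3:179148126, so this core lies inside the annotated gene. The PIK3IP1 stretch is chr22:31292459-31292578 on the minus strand, with the core at positions 17 to 23 after the start used for its window. PIK3IP1 has 2 windows. The AKT1 stretch is chr14:104795749-104795868 and the IRS1 stretch chr2:226799821-226799940, both on the minus strand. Of these genes FOXO4 was called higher, while PIK3CA and PIK3IP1 were not called. A palindromic oestrogen response element (GGTCANNNTGACC) was in none of the 82 member windows and in 20 of 35116 windows of all genes (0.057%). The pattern is too rare for its absence from 82 windows to tell the members from other genes. These are matches of letters in a window, and show no binding.

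**Figure D4:**
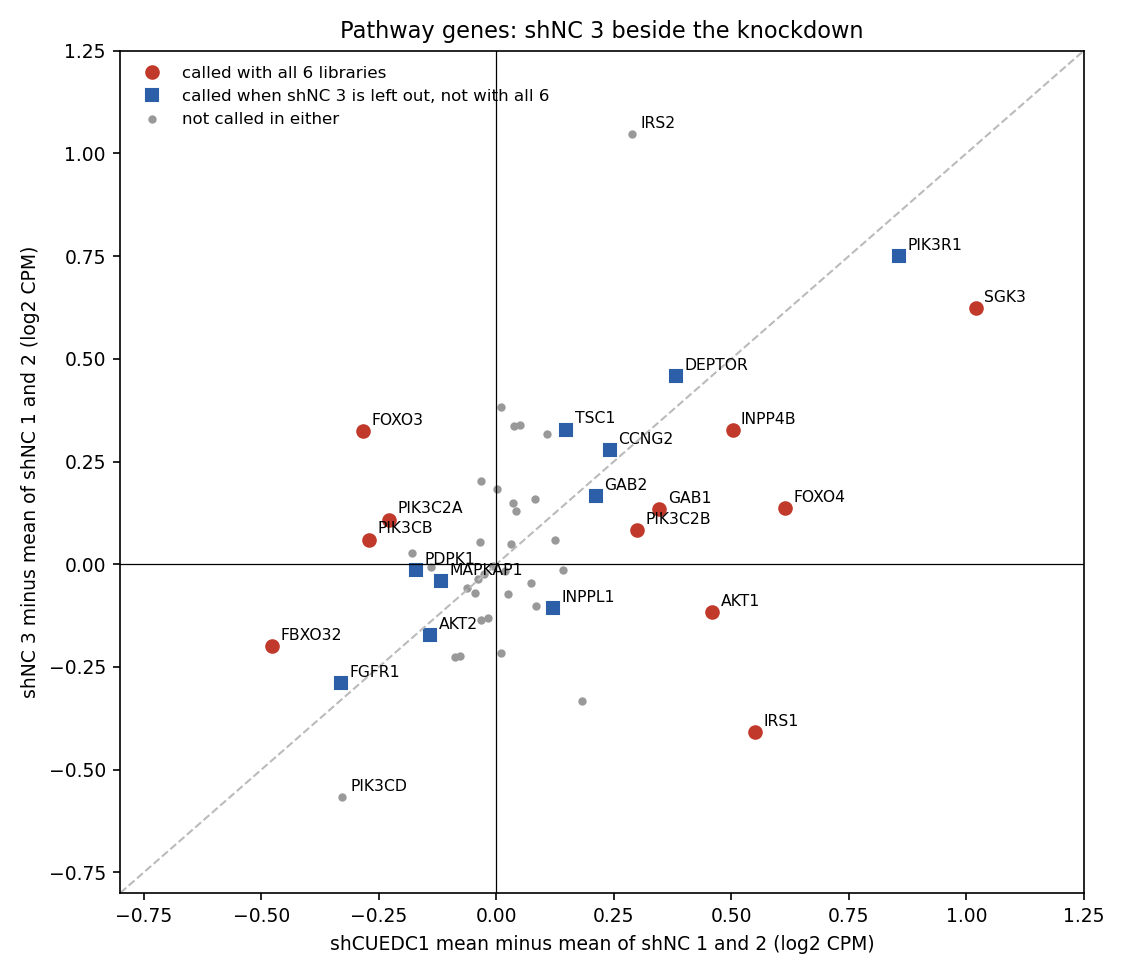
Log2 CPM of shNC 3 minus the mean of shNC 1 and 2 (vertical axis) against the shCUEDC1 mean minus the same mean (horizontal axis) for the 53 tested members, 1 point per gene. Both axes share shNC 1 and 2, so the points are a description, with PIK3R1 and DEPTOR near the diagonal and IRS1 and FOXO3 on opposite sides of 0.

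With shNC 3 left out, 10 further members were called: PIK3R1, GAB2, INPPL1, TSC1, DEPTOR and CCNG2 higher, and FGFR1, AKT2, PDPK1 and MAPKAP1 lower. For 9 of these 10, all but INPPL1, shNC 3 lay on the same side of shNC 1 and 2 as the shCUEDC1 libraries. Over all 53 tested members the count was 37, and both differences share shNC 1 and 2. Genes that gain a call when shNC 3 is dropped are chosen for this pattern, so the 9 are a description. Of the 11 members called with 6 libraries, shNC 3 lay on that side for 6, and on the opposite side for AKT1, IRS1, FOXO3, PIK3CB and PIK3C2A. The largest gaps of shNC 3 from shNC 1 and 2 among these 21 genes were 0.75 for PIK3R1 and 0.62 for SGK3, on the log2 scale. The fits with and without shNC 3 share 5 libraries, so the larger count is no separate support.

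Each library was left out in turn, and each such fit shares 5 libraries with the main fit. Without 1 shCUEDC1 library, 468 to 519 of all genes were called (3.34% to 3.71%), against 1377 with all 6 libraries. Calls were thus lost among all genes, and a lost call is not particular to a member. The members that kept their call in every fit were those with the smallest adjusted p in the main fit. AKT1, IRS1 and FBXO32 were called in all 6 fits, with adjusted p up to 0.00693, 0.0286 and 0.0303 (edgeR). PIK3CB was called in 5, and had an adjusted p of 0.0510 without shCUEDC1 2. FOXO3 was not called without any 1 of the 3 shCUEDC1 libraries (adjusted p 0.0656 to 0.138). GAB1 and FOXO4 were not called without any 1 shCUEDC1 library or without shNC 1 (0.0632 to 0.0729 and 0.0911 to 0.144), nor SGK3 without any 1 shCUEDC1 library or shNC 2 (0.0684 to 0.154). INPP4B, PIK3C2A and PIK3C2B were called only in the fit without shNC 3 (0.0517 to 0.0913, 0.0612 to 0.144 and 0.0618 to 0.145 in the other 5). The direction of all 11 was the same in the 6 fits.

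**Figure D5:**
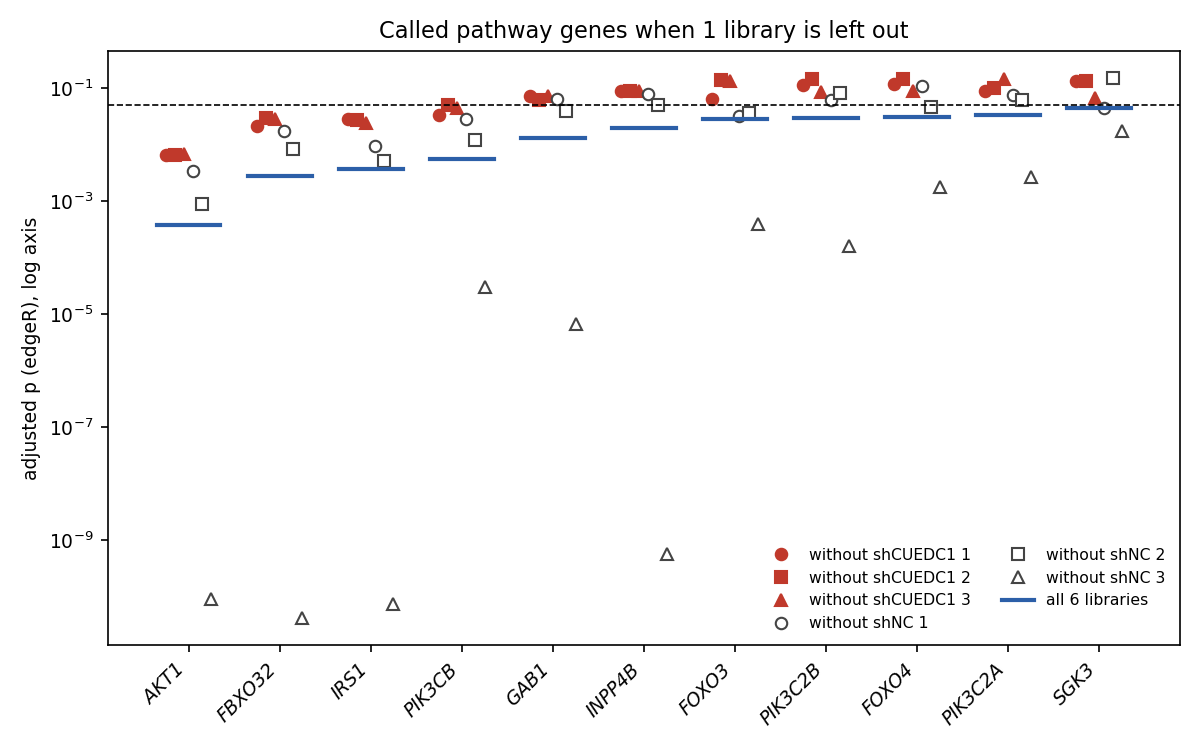
Adjusted p (edgeR, log axis) of the 11 called members with all 6 libraries (bars) and with each library left out (points), the dashed line marking 0.05. AKT1, FBXO32 and IRS1 stay below the line in all fits, and the lowest points are those without shNC 3.

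A wider list of 74 further pathway genes, 71 of them tested, was read beside the members. Of these 5 rose and 2 fell, 9.86% of those tested, against 9.96% of all genes. MTM1, a phosphatase that removes the phosphate class II and III PI3K enzymes add, had 15.5, 14.01 and 12.7 TPM in shCUEDC1, against 9.47, 9.18 and 9.24 TPM in shNC (log2 difference 0.65, edgeR adjusted p = 0.00206). FRS2, the docking protein of the fibroblast growth factor receptors, had 71.1, 70.5 and 67.0 TPM in shCUEDC1, against 39.7, 38.8 and 54.2 TPM in shNC (log2 difference 0.68, edgeR adjusted p = 0.00549). Both were above the shNC range in every shCUEDC1 library.

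ULK1, the autophagy kinase that mTORC1 inhibits, had 27.4, 29.8 and 27.7 TPM in shCUEDC1, against 20.8, 22.4 and 22.1 TPM in shNC (log2 difference 0.40, edgeR adjusted p = 0.00323). PDCD4, a translation inhibitor that S6 kinase marks for degradation, had 368, 353 and 358 TPM in shCUEDC1, against 296, 283 and 320.2 TPM in shNC (log2 difference 0.29, edgeR adjusted p = 0.00522). MTM1, FRS2, ULK1 and PDCD4 were called in all 6 fits that left out 1 library. The other called genes lost their call in some of these fits. PRKAA2, a catalytic subunit of AMPK, was at 3.31 to 3.94 TPM in shCUEDC1 and 2.42 to 3.00 TPM in shNC (log2 difference 0.43, edgeR adjusted p = 0.0288). INPP5E, an inositol lipid phosphatase of the cilium, was at 7.39 to 8.75 TPM in shCUEDC1 and 10.5 to 11.8 TPM in shNC (log2 difference -0.44, edgeR adjusted p = 0.0180). SEH1L, shared by the nuclear pore and the GATOR complex, was at 28.7 to 29.2 TPM in shCUEDC1 and 33.6 to 35.8 TPM in shNC (log2 difference -0.24, edgeR adjusted p = 0.0317), and was the only called gene of 23 in nutrient sensing to mTORC1. PRKAA2 and SEH1L were not called without any 1 shCUEDC1 library or shNC 1 (0.0672 to 0.134 and 0.0873 to 0.158), and INPP5E was called only without shNC 3 (0.0501 to 0.0946 in the other 5).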

How the data were processed

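RNA was measured in 6 libraries, 3 of shCUEDC1 and 3 of shNC cells. The authors deposited 1 table of genes with estimated counts that are not normalised, FPKM and TPM values, both scaled to length and depth, and a signal column holding counts divided by a size factor, which was not used. Per the submitters' processing notes the reads were placed on GRCh38 p13. Which aligner and counter were used, and whether strand was used, was not given in the sources used here.

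Levels are the deposited TPM. The deposited estimated counts were rounded, filtered (filterByExpr, minimum count 10), normalised by TMM and tested with edgeR 4.0.16 (robust quasi-likelihood F test, group as the sole term, R 4.3.3). Benjamini-Hochberg adjustment covered all genes tested, with calls at 0.05. Alternatives used DESeq2 1.42.0, limma 3.58.1 (counts by voom, and log2(FPKM + 0.5) or log2(FPKM + 0.1) of the deposited FPKM), other size factors and filters, a replicate block, and each library left out. An exact permutation test of 3 against 3 libraries cannot go below 0.1 and was not used. Members and lists were chosen with earlier results of these data known. Values per library are given for called members and the most abundant uncalled member of each role group, and for MTM1, FRS2, ULK1 and PDCD4 of the wider list. The other called genes of the wider list, PRKAA2, INPP5E and SEH1L, are given by range. DEPTOR, PDPK1, AKT2, IRS2, GSK3B, SESN3 and PIK3C2G are given by library in addition, chosen after their values were seen. Exon overlaps are from GENCODE version 29. A planned search for AKT substrate motifs in proteins was not made, and PIK3R6, TCL1A and IRS4 of the wider list are not analysed here. No 2 libraries of the same group agreed within sampling noise.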

Additional observations from a re-analysis of the deposited data

How the results depend on the processing

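Members called numbered 11 with RLE size factors, with a 1 CPM minimum, with DESeq2 and with limma-voom, where 9.84% to 10.6% of all genes were called. There were 10 with no low-count filter, without SGK3 (7.97% of all genes), and 8 with limma-trend on log2(FPKM + 0.5) or log2(FPKM + 0.1) (8.26% and 8.37%), without FOXO3 (adjusted p 0.0524 and 0.0506), PIK3C2A (0.0596 and 0.0590) and PIK3C2B (0.0785 and 0.0783). Leaving out 1 library gave 3 (without shCUEDC1 2) to 21 (without shNC 3) members called, 4 to 20 genes of the wider list and 468 to 3925 of all genes (3.34% to 28.1%). The other values for members were 4 without shCUEDC1 1, 4 without shCUEDC1 3, 6 without shNC 1 and 7 without shNC 2. With the replicate number as a block, 7 members were called (4 higher, 3 lower), 5 genes of the wider list and 1117 of all genes (8.08%), and SGK3, FOXO4, PIK3C2A and PIK3C2B were not. Same-numbered libraries deviated together no more than others (correlations of 0.0091, 0.0707 and 0.0267 over 10142 genes, against -0.091 to 0.071). No pairing by number was seen, but with shNC 3 apart from its group a weak pairing could have been missed. PIK3CA, not called in any fit, had a log2 difference of 0.0025 with no filter, 0.0039 with voom, 0.047 and 0.049 with the trend fits, 0.0023 with the block and -0.063 to 0.11 with 1 library left out. FGFR2 was at -0.036 and -0.037 with the trend fits and -0.028 to 0.037 with 1 library left out, RHEB at -0.0022 with both trend fits and -0.0041 to 0.035, and GRB2 at 0.0010 with no filter and -0.017 to 0.014. GSK3A ranged from -0.075 to 0.035 and EIF4EBP1 from -0.086 to 0.066 with 1 library left out. None of these was called in any fit, and the cause was not tested. PIK3CD, INPP5D, IRS2 and SGK1 averaged below 2 TPM, and the 95% intervals of PIK3CD, INPP5D and IRS2 reached beyond 1.5-fold. IRS2 was also high in shNC 3.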
